A study of Mus musculus with 2 samples.

Results

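The genes described here make, break down and read the cyclic nucleotides cAMP and cGMP. They are 40 listed mouse genes out of 43346 Ensembl gene rows in each deposited table: 10 adenylyl cyclases, 18 phosphodiesterases, the phosphodiesterase-named prenyl-binding protein Pde6d, 2 catalytic and 4 regulatory subunits of cAMP-dependent protein kinase (PKA), 2 cGMP-dependent kinases, the neuronal nitric oxide synthase Nos1, and 2 cAMP-activated exchange factors for the small GTPase Rap. Membership goes by gene symbol and not by a threshold on a measured value, and 39 of the 40 were matched by gene ID. The row used for Pde2a carries an ID that the later annotation names Gm45837. It lists 3 transcripts, of which 2 belong to Pde2a in that annotation, but all 174 and 80 of its counts were assigned to the remaining one, so its value may not be that of Pde2a.

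RNA came from the granule layer of wild-type male mouse cerebellum (strain B6NCrl or C57Bl6, as different labels have it) at an age of 8 months, with no treatment named. Laser capture cut out areas of 18000 square microns, with 50 cells given as the starting quantity, and each area became 1 Smart-seq library, a full-length protocol with amplification. There are 2 such libraries, numbered as biological replicates 1 and 2 under the same donor label. They form 1 group, so no condition can be compared, and whether the areas came from 1 animal is not stated, so the spread between them may be technical in part. Expected counts totalled 20532709 in replicate 1 and 19939370 in replicate 2. Of the marker lists used to check the tissue, the granule neuron list had the highest summed TPM (transcript abundance corrected for length and library total) among the neuronal ones. Its Gabra6 had 925 and 1086 TPM and its Neurod1 416 and 438 TPM. Single markers of different neuronal lists overlapped in level. Oligodendrocyte, astrocyte and blood markers were also present, so no level here belongs to granule neurons alone, and in such bulk areas fewer cells of a type and less RNA per cell cannot be told apart.

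cAMP is made from ATP by adenylyl cyclases, which G proteins and, for some isoforms, calcium and calmodulin switch on. It frees the catalytic subunits of PKA from their regulatory subunits, activates the exchange factors encoded by Rapgef3 and Rapgef4 (Epac1 and Epac2), and is removed by phosphodiesterases, which differ in whether they cut cAMP, cGMP or both. Nitric oxide from Nos1 raises cGMP through soluble guanylyl cyclase. In the cerebellum, calcium-stimulated cyclase activity at parallel fibre terminals, the outputs of granule neurons, is known for its part in presynaptic plasticity.

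The catalytic domain of phosphodiesterases holds histidines and aspartates that bind metal ions. The coding sequences of 6 phosphodiesterases are shown over a motif of codons for His, Asp, any 2, His, any 4 and Asn. They are the most abundant by whole-gene TPM among the genes where the motif was found, and they cover all the substrate classes. Capitals mark the codons of His, Asp, His and Asn, and do not mean that each of these residues binds metal. Sequences are from GENCODE M21 transcripts on GRCm38. The motif lines use the longest coding part annotated for each gene, not the RNA measured. For Pde4d this was Pde4d-208, with 0 and 1.93 counts, and for Pde1c it was Pde1c-209, which is not among the transcripts counted.
Pde10a (chr17:8967449-8967478, plus strand): CATGACctggacCACaggggcttcagtAAC
Pde4b (chr4:102599694-102599723, plus strand): CATGATgtcgatCATcctggagtctccAAT
Pde1c (chr6:56158947-56158976, minus strand): CATGACtatgaaCATactggaactacaAAC
Pde3b (chr7:114526921-114526950, plus strand): CACGATtacgatCACccaggaagaacaAAT
Pde4d (chr13:109939313-109939342, plus strand): CATGATgtggacCATcctggggtgtcaAAT
Pde9a (chr17:31460230-31460259, plus strand): CATGACctggacCACccagggtacaacAAT
The motif was found in 16 of the 18 phosphodiesterase genes. It was not found in Pde7a or Pde7b, which says only that these codons are not in that form there, nor in Pde6d, which is known as a prenyl-binding protein and not as an enzyme.

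The 4 PKA regulatory subunits differ at the inhibitor site that occupies the active site of the catalytic subunit. Capitals mark the pair of arginine codons and the codon at the position where a substrate would carry its phosphate group. Type I subunits have there a codon for alanine or glycine and act as pseudosubstrates, and type II subunits have a serine codon. The lines are shown because the type I genes supplied most of the regulatory RNA, as given further on.
Prkar1a (chr11:109660101-109660130, plus strand): cgacggCGCCGAggtGCTatcagtgctgaa
Prkar1b (chr5:139108523-139108552, minus strand): cgtcgcCGGCGGggcGGTgtgagtgctgaa
Prkar2a (chr9:108714290-108716873, plus strand, across an intron): tttactAGACGAgtaTCAgtctgtgcagaa
Prkar2b (chr12:31993773-32038640, minus strand, across an intron): ttcacaAGGCGTgccTCGgtctgtgcagaa

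Detection required both libraries to reach 1 TPM and 5 expected counts. By this rule 27 of the 40 genes were detected, against a background of 50.4% of 21474 protein-coding genes. The median level was 2.72 TPM, against 1.415 TPM over all protein-coding genes and 14.3 TPM over those detected. Replicate 1 alone gave 30 detected genes and replicate 2 gave 28. Levels ran from Rapgef4 at 178 TPM down to Adcy4, which had 3 counts in replicate 1 and none in replicate 2. Of the 39 pairs of neighbours in the order of mean levels, 11 were separated, meaning that the lower library of the higher gene lay above the higher library of the next gene. The last of these was Pde4a above Pde8b, and below Pde8b no pair was separated.

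**Figure D1:**
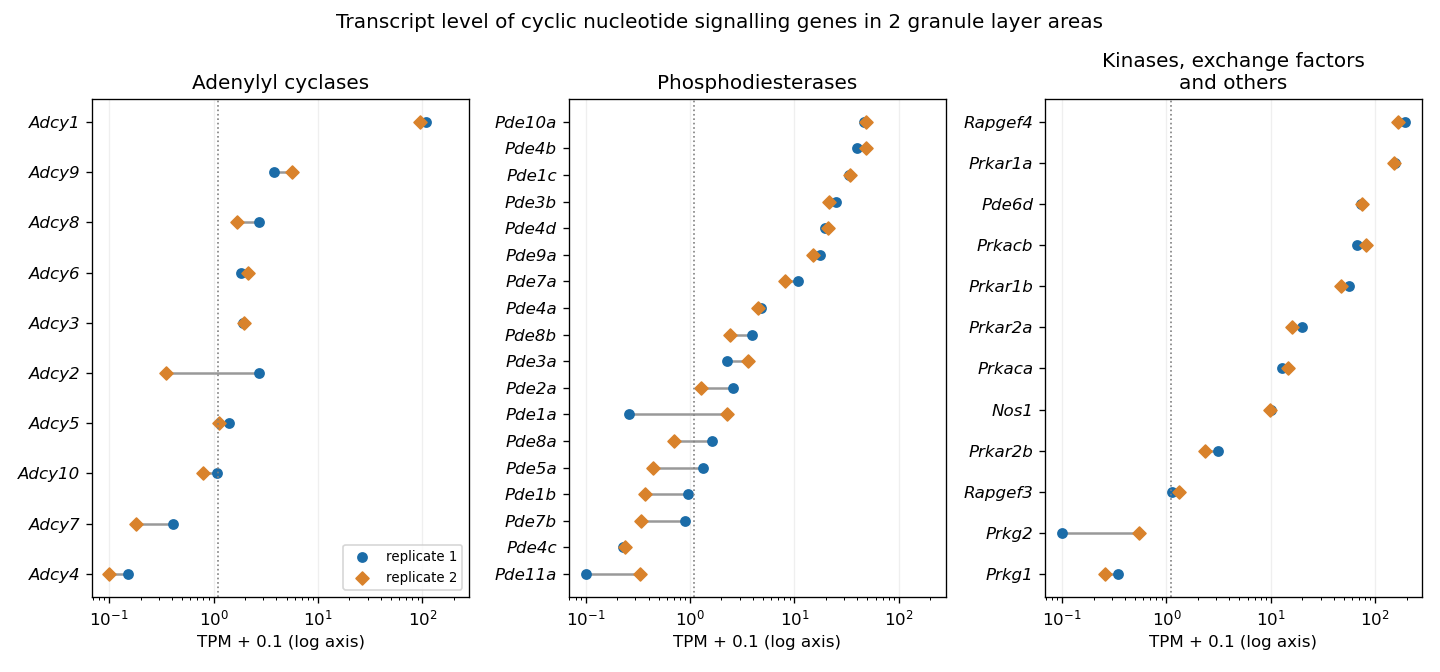
Level of each of the 40 genes in TPM + 0.1 on a log axis, with circles for replicate 1 and diamonds for replicate 2, each pair joined by a line, and a dotted line at a TPM of 1. Adcy1 stands at 109 and 95.4 TPM while every other cyclase is below 6 TPM, and the phosphodiesterases form a gradual series, headed by Pde10a and Pde4b by whole-gene TPM but by Pde1c when only coding transcripts are counted; a TPM of 0 is drawn at 0.1.

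Among the adenylyl cyclases, RNA came mostly from Adcy1, the calcium- and calmodulin-stimulated cyclase known from neurons. Its level was 109 TPM in replicate 1 and 95.4 TPM in replicate 2, a mean of 102 ± 9.30 TPM (SD, n = 2), and it held 22611 and 19318 expected counts, the most of the 40 genes. Both libraries were high, and all of its counts went to the 12259-base coding transcript Adcy1-201. The gene lies on chromosome 11 from 7063489 to 7178506 on the plus strand (mm10).

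Adcy9, a widely expressed cyclase that responds little to forskolin, followed at 3.71 and 5.54 TPM. Adcy8, also stimulated by calcium, had 2.64 and 1.59 TPM. Adcy6 and Adcy5, the cyclases inhibited by calcium, had 1.73 and 2.02 TPM and 1.31 and 1.02 TPM. Adcy9 lay above the other 3 genes in both areas, Adcy8 and Adcy6 overlapped, and Adcy1 was far above all 4.

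Adcy3, grouped here with the calcium-stimulated cyclases and known from olfactory cilia, had 1.83 and 1.85 TPM. Its counts were 142 and 87.5, so the like TPM values rest on a different split among its transcripts, and coding transcripts alone gave 1.53 and 0.80 TPM. An exon of Cenpo, with 220 and 237 counts, overlaps Adcy3 by 921 bases on the opposite strand, and the use of strand in counting is not given in the sources used here. Adcy2, stimulated by G protein beta-gamma subunits, had 2.60 TPM in replicate 1 and 0.25 TPM in replicate 2, so the areas stood far apart.

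The other cyclases were not detected in both areas. Adcy10, the soluble bicarbonate-stimulated cyclase, had 0.97 and 0.69 TPM, of which transcripts called protein-coding held 0 and 0.08 TPM. By counts they held 0 of 28 and 6.48 of 24. Adcy7 had 0.31 and 0.08 TPM. Adcy4 had 0.05 TPM from 3 counts and then 0, where 3 counts would be 0.0538 TPM and the deposited upper bound was 0.0822 TPM. The 10 genes summed to 124 and 108 TPM, a mean of 116 ± 10.8 TPM (SD, n = 2), with 6 of 10 detected. Calcium-stimulated members held 91.3% ± 0.155 of that sum, which is nearly all Adcy1.

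No single gene held the phosphodiesterase RNA in the same way. Of 18 genes 11 were detected, and they summed to 208 and 211 TPM, a mean of 210 ± 2.02 TPM (SD, n = 2). The highest genes came from several substrate classes. Pde10a, which cuts both nucleotides and is best known from striatal neurons, had 45.9 and 48.0 TPM. Pde4b, cAMP-specific and the target of rolipram-like inhibitors, had 39.4 and 48.4 TPM. These areas overlapped, so Pde10a and Pde4b could not be ordered.

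Pde1c, a calmodulin-activated enzyme that cuts both nucleotides, had 32.9 and 34.2 TPM and lay below both of them in each area by whole-gene TPM. This order turned when coding transcripts alone were counted, with Pde1c at 32.9 and 34.2 TPM, Pde4b at 29.0 and 30.7 TPM and Pde10a at 24.2 and 23.5 TPM. Pde1c also had the most reads of the 3, at 3556 and 3505 counts, against 2700 and 2915 for Pde10a and 1737 and 1956 for Pde4b. Pde3b, a cAMP-cutting enzyme that cGMP inhibits, had 25.0 and 21.5 TPM. Pde4d, cAMP-specific, had 19.5 and 21.1 TPM. By whole-gene TPM Pde3b stood just above Pde4d, with 21.5 TPM in its lower area against 21.1 TPM in the higher area of Pde4d. With coding transcripts alone they stood far apart, at 15.8 and 15.1 TPM for Pde3b and 3.18 and 3.87 TPM for Pde4d.

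Pde9a, the cGMP-specific enzyme with high affinity, had 17.4 and 14.9 TPM. Pde7a, cAMP-specific and insensitive to rolipram, had 10.6 and 7.94 TPM. The cAMP-specific Pde4a had 4.70 and 4.42 TPM. Thus 7 phosphodiesterases reached a mean of 5 TPM by whole-gene TPM, and among the cyclases Adcy1 alone did. With coding transcripts alone Pde4d fell below that level.

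A lower tier followed. Pde8b and Pde8a, high-affinity cAMP-specific enzymes, had 3.80 and 2.33 TPM and 1.54 and 0.60 TPM. Pde3a had 2.14 and 3.48 TPM, and its antisense neighbour Gm28523 had 47.5 and 69.9 counts against 392 and 619 for Pde3a. The row used for Pde2a, a cGMP-stimulated enzyme, had 2.47 and 1.17 TPM. In these 4 genes the higher area was at least 1.5 times the lower.

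The least abundant phosphodiesterases were at or near the floor of 3 counts or well below a TPM of 1 in at least 1 area. Pde1a had 0.16 and 2.16 TPM from 11 and 52 counts. Pde5a, the cGMP-specific target of sildenafil, had 1.22 and 0.34 TPM. Pde1b and Pde7b had 0.86 and 0.27 TPM and 0.80 and 0.24 TPM. Pde4c had 7 counts in each area. Pde11a had no count in replicate 1 and 8 counts in replicate 2. For replicate 1, 3 counts would be 0.0691 TPM at the length used there, and the deposited upper bound was 0.181 TPM.

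Divided by substrate, cAMP-specific enzymes held 39.5% ± 1.17 of phosphodiesterase TPM, calmodulin-activated dual enzymes 16.8% ± 0.765, other dual enzymes 35.7% ± 0.738 and cGMP-specific enzymes 8.06% ± 1.20 (SD, n = 2). The shares depended on which transcripts were counted. With protein-coding transcripts only, a split chosen after the data were seen, the calmodulin-activated share was 24.5% and the cAMP-specific share 33.4%. By reads without division by length, the calmodulin-activated share was 27.7% and the cAMP-specific share 28.4%.

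**Figure D2:**
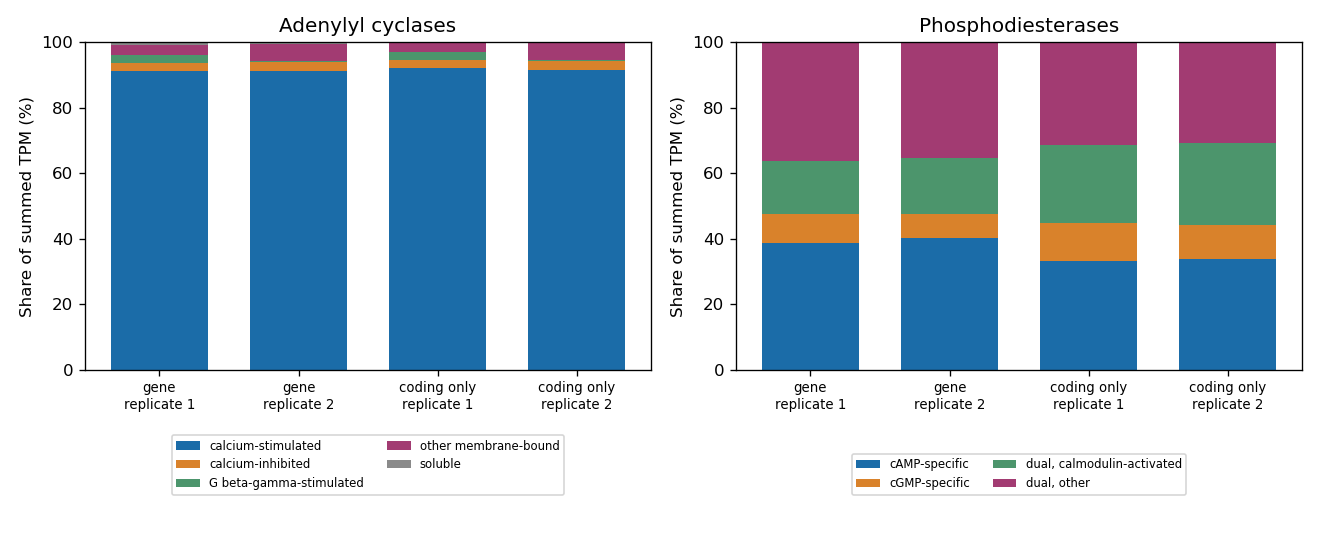
Share of summed TPM (%) held by each class of adenylyl cyclase (left) and phosphodiesterase (right) in replicates 1 and 2, for whole genes and for protein-coding transcripts only. Calcium-stimulated cyclases hold 91.4% and 91.1% in the areas, and the calmodulin-activated phosphodiesterases hold 16.3% and 17.3% for whole genes and more when only coding transcripts are counted.

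Pde6d binds prenylated proteins and carries them between membranes. Its level was 73.5 and 74.7 TPM, higher than that of each of the 18 enzymes in both areas. It was left out of the phosphodiesterase sums.

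All 6 PKA genes were detected, and 1 subunit of each kind led. Prkacb, the beta catalytic subunit, had 66.4 and 81.4 TPM, and Prkaca, the alpha catalytic subunit, had 12.8 and 14.3 TPM, so Prkacb held 84.4% ± 0.823 of catalytic TPM (SD, n = 2). Prkacb was above Prkaca in both areas with no overlap.

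Among regulatory subunits Prkar1a, type I alpha, had 153 and 149.7 TPM, and Prkar1b, the type I beta form known from neurons, had 55.7 and 46.6 TPM. Prkar2a, type II alpha, had 19.6 and 15.8 TPM, and Prkar2b, type II beta, had 3.03 and 2.23 TPM. The 4 genes kept this order in both areas without overlap, and type I genes, whose inhibitor sites were shown with alanine or glycine codons, held 90.9% ± 0.975 of regulatory TPM.

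Regulatory subunits summed to 223 ± 12.3 TPM and catalytic subunits to 87.4 ± 11.8 TPM. The ratio of regulatory to catalytic TPM was 2.93 in replicate 1 and 2.24 in replicate 2. These are RNA ratios and give no subunit ratio of the protein. By read counts without division by length the mean ratio was 2.03, and with coding transcripts only it was 2.46.

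The cGMP-dependent kinases were near the floor. Prkg1, known in the cerebellum from Purkinje cells, had 9 and 7 counts, at 0.24 and 0.16 TPM. Prkg2 had no count in replicate 1, which allows up to 0.0860 TPM, and 9 counts in replicate 2. Neither was detected. Nos1, which makes the nitric oxide that drives cGMP synthesis, had 9.82 and 9.71 TPM, and its level was nearly equal in both areas.

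Rapgef4 had the highest gene level of the 40, at 192 and 164 TPM, a mean of 178 ± 19.5 TPM (SD, n = 2). Rapgef3 had 1.02 and 1.21 TPM, of which coding transcripts held 0.31 and 1.21 TPM, so its near-equal levels rest on a different split among transcripts. Most of the Rapgef4 value belonged to short transcripts, and its coding transcripts alone had 39.2 and 33.8 TPM. Ranked by coding transcripts, Rapgef4 stood at rank 6, and Prkar1a and Adcy1 led.

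**Figure D3:**
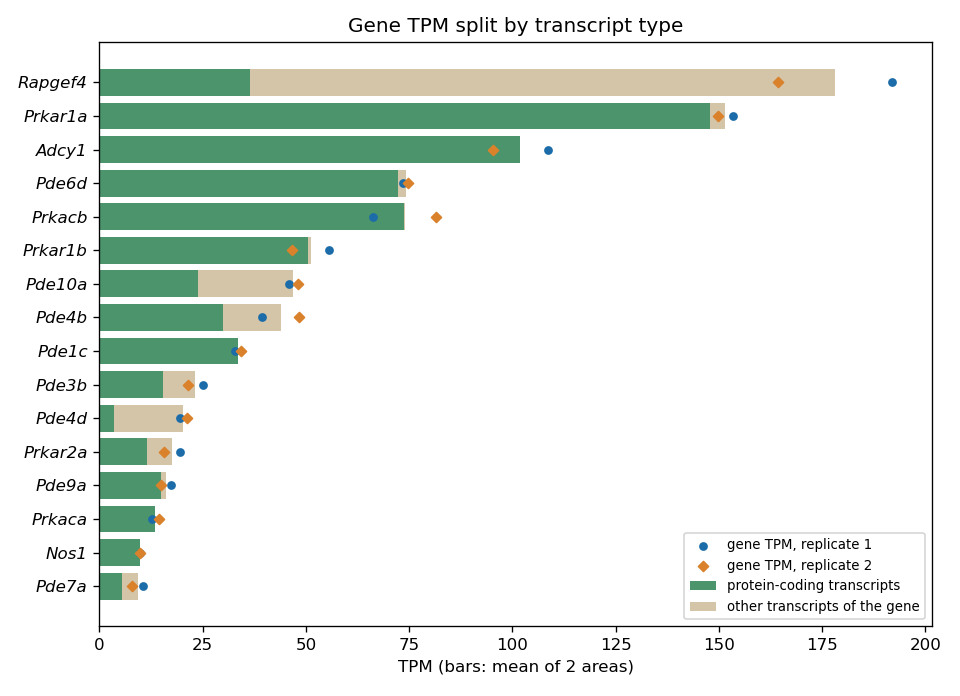
Gene TPM of the 16 genes with a mean of at least 5 TPM, drawn as the mean of 2 areas and split into protein-coding transcripts (green) and other transcripts of the gene (tan), with the gene TPM of each area as points. The tan part is widest in Rapgef4, where coding transcripts hold 20.5% of the TPM, and is the larger part in Pde4d, where they hold 17.4%, while Adcy1 and Prkaca have none.

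Transcripts were described for the 16 genes with a mean of at least 5 TPM. In 9 of them protein-coding transcripts held over 90% of the TPM. In 2, Rapgef4 and Pde4d, they held under 50% of the mean TPM, against a background of 16.5% of 8272 protein-coding genes at this level. Pde10a lay close to this limit, with 52.7% in replicate 1 and 49.0% in replicate 2. In Rapgef4, the processed transcripts Rapgef4-208 (694 bases) and Rapgef4-205 (438 bases) held 35.0% and 36.8%, and 34.7% and 33.5%, of the gene's TPM in replicates 1 and 2, and the coding Rapgef4-202 (4181 bases) held 16.0% and 16.8%. By reads the order was the opposite. Rapgef4-202 held 52.1% and 52.9% of the counts, and all coding transcripts together 65.5% and 63.6%, since TPM divides by length and the processed transcripts are short.

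Rapgef4-208 runs past the end of an exon that coding transcripts splice. It is shown at that point, where capitals mark the first 6 bases beyond the exon end, which open with the GT found at the start of most introns, and again at its last 50 bases, where capitals mark AATAAA, the common polyadenylation signal.
Rapgef4-208, exon end (chr2:72141158-72141187, plus strand): cctgacaaggagaatGTGAGTagccactct
Rapgef4-208, transcript end (chr2:72141252-72141301, plus strand): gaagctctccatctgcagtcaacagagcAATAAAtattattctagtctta
Of its 694 bases, 129 lie outside the exons of coding Rapgef4 transcripts. AATAAA was found in the last 50 bases of 2 of the 10 transcripts without a coding sequence that ranked first or second in their gene and had reads, Rapgef4-208 and Pde3b-202, against 17.2% of 37515 annotated retained-intron and processed transcripts of at least 200 bases and 40.7% of 58616 protein-coding ones. Rapgef4-208 and Rapgef4-205 share bases with the coding transcripts, so the division of reads among them rests on the deposited estimates. An antisense gene, Rapgef4os2, overlaps Rapgef4 exons by up to 138 bases and had 107 and 85.2 counts.

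Pde4d differed from Rapgef4 in that its leading transcript led by both measures. The processed transcript Pde4d-210 (2397 bases, of which 1957 lie outside the exons of coding transcripts) held 56.5% and 65.3% of TPM and 62.2% and 65.2% of counts. Coding Pde4d transcripts had 3.18 and 3.87 TPM. In Pde10a the retained-intron transcript Pde10a-210 held 37.5% and 34.6% of TPM but 7.45% and 6.49% of counts, and the coding Pde10a-202 led by counts with 60.3% and 48.7%. Pde4d was thus the only 1 of the 16 genes whose leading transcript by counts was not protein-coding, against 3 by TPM.

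In Pde4b, the coding Pde4b-207 held 31.2% and 34.3% of TPM and the retained-intron Pde4b-211 held 21.9% and 32.2%. Pde3b-201 held 63.0% and 70.3%, with Pde3b-202 at 30.7% and 20.9%. Pde7a-202 held 47.2% and 71.3%, and Pde7a-204, a retained-intron form, 26.2% and 18.8%. Prkar2a-201 held 58.2% and 71.3%, and the retained-intron Prkar2a-204 held 41.8% and 26.9%. In each of these 4 genes the coding transcript led by TPM in both areas.

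The other genes drew most of their RNA from coding transcripts. Prkar1a was divided between Prkar1a-201, with 68.9% and 69.5%, and Prkar1a-203, with 28.2% and 25.4%. Pde1c-206 and Pde1c-201 held 32.9% and 35.8%, and 27.8% and 31.0%. Pde1c-205, named after its values were seen, had 1004 counts in replicate 1 and 0.21 in replicate 2 while the gene's level hardly moved. Pde9a-201 held 51.1% and 34.0%, and Pde9a-211 held 26.4% and 32.0%. Prkar1b-201, Pde6d-201 and Nos1-206 held at least 89.1% in each area. Prkar1b-204 and Pde6d-204 came second by mean share with at most 4.83%, and Nos1-202 with 0.18% and 0.

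The 3 main coding transcripts of Prkacb differ in their start and are shown over their first 45 bases with the start codon in capitals. Prkacb-202 held 81.9% and 79.4% of the gene's TPM, Prkacb-203 held 10.7% and 11.5%, and Prkacb-204 held 6.85% and 9.08%. The minor forms run into the same bases after different first codons.
Prkacb-202 (chr3:146812639-146812683, minus strand): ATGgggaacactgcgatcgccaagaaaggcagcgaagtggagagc
Prkacb-203 (chr3:146757731-146769940, minus strand, across an intron): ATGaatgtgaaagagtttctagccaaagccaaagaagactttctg
Prkacb-204 (chr3:146757734-146770525, minus strand, across an intron): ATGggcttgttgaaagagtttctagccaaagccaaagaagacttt
The order of the 3 forms was the same in both areas.

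The areas were then compared gene by gene, which describes 2 libraries and not conditions. Adcy4, Pde11a and Prkg2 had too few counts to be tested. Among the 37 genes with a summed count of at least 10, 5 were over 1.5-fold apart on the TPM + 1 scale, against a background of 13.1% of 16636 genes. Replicate 1 was the higher in 4 (background 7.24%) and replicate 2 in 1 (background 5.81%). All 5 had a mean below 5 TPM, and none of the 16 genes above that level was so far apart, where the background was 5.82%. Adcy2 had 183 counts in replicate 1 and 17 in replicate 2, a log2 ratio (replicate 2 over replicate 1) of -1.53. Pde5a, Pde2a and Pde8a were also higher in replicate 1, with log2 ratios of -0.73, -0.68 and -0.67. Pde1a was higher in replicate 2, with a log2 ratio of 1.45. Its reads were split differently among transcripts in the 2 areas, and coding transcripts alone gave a smaller gap, at 0.16 and 1.11 TPM. For Pde8a they gave 1.11 and 0.60 TPM, also a smaller gap.

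An exact binomial test of counts against the libraries' totals, two-sided with Benjamini-Hochberg adjustment over all 16636 genes, put 23 of the 37 genes beyond counting error, against a background of 47.6%. Of the 37 genes, 16 were beyond counting error with replicate 1 higher, where the background was 24.0% of all tested genes, and 7 with replicate 2 higher, where it was 23.7%. For Adcy1 the adjusted p of this exact test was 3.3e-33 although its log2 ratio was only -0.18. For Prkacb, higher in replicate 2, it was 5.5e-25 with a log2 ratio of 0.29, and for Adcy9 it was 9.8e-07 with 0.47. This test takes reads as independent, which amplified reads are not. With counts divided by 10 only Adcy1 remained beyond counting error, against 0.703% of all genes.

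**Figure D4:**
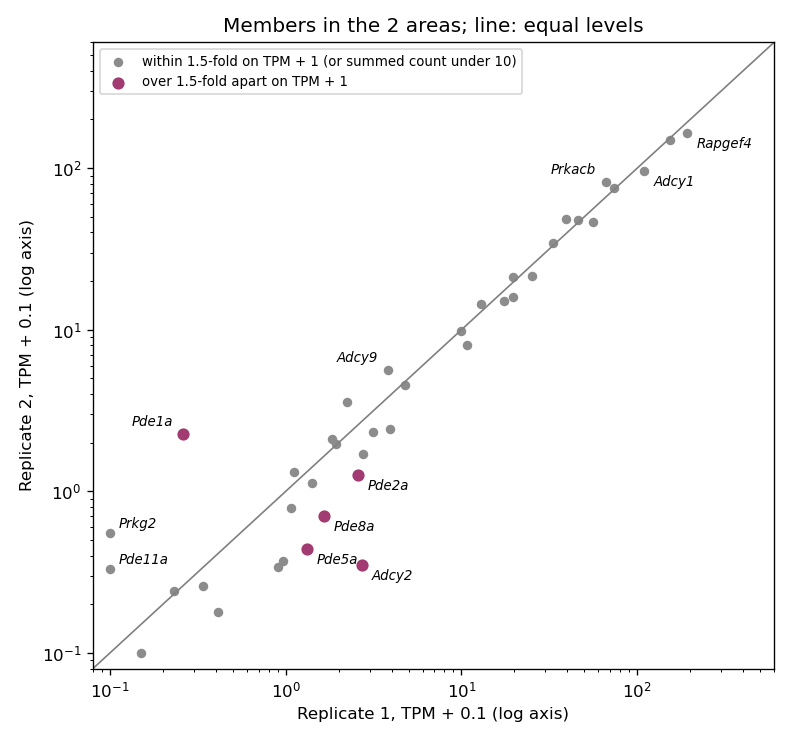
Level of each gene in replicate 1 (x axis) and replicate 2 (y axis), both as TPM + 0.1 on log axes, with a line of equal levels; purple points are the 5 genes over 1.5-fold apart on TPM + 1. The purple genes all lie below 5 TPM, while the abundant genes such as Adcy1, Prkacb and Rapgef4 lie close to the line.

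Cell type markers differed between the areas as well. By whole-gene TPM, all 5 red blood cell markers were higher in replicate 1, with Hba-a1 at 982 and 81.3 TPM and a sum of 5039.6 and 390.1 TPM. So were all 4 endothelial markers (summed 154 and 129 TPM), all 6 Bergmann glia and astrocyte markers (488 and 449 TPM) and all 5 Golgi and inhibitory neuron markers (46.8 and 34.3 TPM). Beyond counting error were all 5 red blood cell markers, all 4 endothelial ones, 3 of the 5 tested Bergmann glia and astrocyte ones and 3 Golgi and inhibitory ones (background 24.0%). All 7 granule neuron markers (2622 and 2888 TPM) and all 5 oligodendrocyte markers (522 and 637 TPM) were higher in replicate 2. Of these, 6 granule neuron and 4 oligodendrocyte markers were beyond counting error (background 23.7%). Of the 5 mural cell markers 4 were higher in replicate 2, with Acta2 listed at 0 and at 6.35 TPM and a sum of 34.8 and 52.1 TPM, and 4 of the 6 Purkinje cell markers were higher in replicate 2, their sum of 105 and 174 TPM being mostly Pcp2, at 91.1 and 158 TPM. Of the 5 microglia markers 4 were higher in replicate 1 (summed 84.1 and 63.9 TPM), and so were 2 of the 3 molecular layer interneuron markers (34.2 and 32.6 TPM). Of the 3 unipolar brush cell markers 2 were higher in replicate 1, with Eomes at 6.08 and 3.99 TPM and Lmx1a at 0.58 TPM and listed at 0, although the list's sum of 56.3 and 80.1 TPM went the other way with Calb2, named after its values were seen, at 49.7 and 76.1 TPM. The precursor markers Pdgfra and Cspg4 were below 1 TPM in both areas. The part of these cells in the differences of Adcy2, Pde1a, Pde5a, Prkacb and the others was not tested.

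RNA of the proteins around these enzymes was also measured, over 73 further genes in 11 lists. Of these 42 were detected, against a background of 50.4% of 21474 protein-coding genes. The same background applies to the detected counts of the single lists. All 3 PKA inhibitor genes were detected and were abundant, with Pkib at 391 and 393 TPM, Pkia at 93.2 and 106 TPM and Pkig at 81.4 and 70.7 TPM. Pkib was above every PKA subunit in both areas. Of 15 A-kinase anchoring protein genes, which tie PKA to places in the cell, 11 were detected, led by Akap9 at 249.9 and 242 TPM, Akap7 at 169.9 and 158 TPM and Akap8l at 36.7 TPM in each. Coding transcripts held 29.9% of Akap9 TPM but 80.4% and 75.6% of its counts.

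All 7 stimulatory and inhibitory G protein alpha genes were detected. Gnas, the stimulatory subunit that activates cyclases, led with 315 and 288 TPM, followed by the inhibitory Gnai1 with 117 and 121 TPM and by Gnao1 with 81.2 and 78.8 TPM. All 7 genes of the CREB family, which holds nuclear targets of PKA, and of its coactivators were detected. They were led by the coactivator Crebbp at 52.5 and 51.0 TPM, Creb1 at 32.3 and 33.3 TPM and Atf1 at 28.1 and 27.4 TPM. All 5 Rap genes, the GTPases that the exchange factors act on, were detected, with Rap1b at 50.6 and 56.4 TPM, Rap1a at 41.3 and 42.0 TPM and Rap2a at 8.31 and 7.21 TPM. Coding transcripts held 46.3% of Rap2a TPM, and 57.5% and 41.4% of its counts.

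On the cGMP side, 4 of 11 guanylyl cyclase genes were detected. Gucy1b1, the beta subunit of the nitric oxide receptor, had 33.7 and 39.2 TPM and Gucy1a1, an alpha subunit, had 10.5 and 6.04 TPM. Npr2, a natriuretic peptide receptor with cyclase activity, had 17.0 and 10.5 TPM. Both of the latter were over 1.5-fold apart and higher in replicate 1. With coding transcripts alone the gaps were smaller, at 12.1 and 9.81 TPM for Npr2 and 8.05 and 5.49 TPM for Gucy1a1. Npr2 had 441 and 347 counts. Coding transcripts held 49.5% of Gucy1b1 TPM but 86.9% and 79.8% of its counts. Neither Nos2 nor Nos3 was detected, and none of the 5 photoreceptor phosphodiesterase 6 subunit genes was.

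Of 5 phosphatase regulators phosphorylated by PKA or PKG, 4 were detected. The highest by whole-gene TPM were Arpp21 at 212 and 170.1 TPM and Arpp19 at 177 and 200.3 TPM, which overlapped and could not be ordered. Ppp1r1b followed at 12.0 and 11.9 TPM. Coding transcripts alone gave 107 and 81.4 TPM for Arpp21, 121 and 132 TPM for Arpp19, and only 1.43 and 2.25 TPM for Ppp1r1b. Of the 3 Popeye genes, whose products bind cAMP, none was detected. Over 1.5-fold differences between the areas were seen in 4 of the 52 tested genes of these lists, against the background of 13.1% of all tested genes.

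The promoters of 33 of the 40 genes were given by RefSeq on GRCm38.p6, from 250 bases before to 50 after the start. The cAMP response element TGACGTCA, which reads the same on both strands, was found in 1 of them, that of Prkar1a, against 2.03% of 27025 genes. This is a match of letters and not a measured site.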

How the data were processed

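Gene and transcript tables of 2 laser-captured areas of mouse cerebellar granule layer were used, as 1 group. The authors deposited, per the file headers, an expected count for each gene and transcript, estimated by dividing ambiguous reads, so values can be fractional. TPM and FPKM, per the file headers, are the authors' levels per length and per library. Deposited score columns hold TPM bounds and a posterior SD, and a deposited percent column holds transcript shares. The authors used mm10 with GENCODE M4, per the deposited notes. The aligner, counter and strand setting were not given in the sources used here. Names, transcript types and coordinates came from GENCODE M21 on GRCm38, matched by ID without version for 42462 of 43346 rows; because M21 is later, a type can differ from the one used in counting. The 97 spike-in rows, with 2.78% and 3.40% of the expected counts, and 26248 numeric rows, with 10 and 6 counts, were left out.

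The genes and lists were chosen by name, with earlier results of these data known. All 40 genes, the 3 highest of each other pathway list, the first 2 transcripts of genes with a mean of at least 5 TPM and the first 2 genes of each marker list could be named. Coding TPM sums transcripts that M21 calls protein-coding. Differences between areas were taken as log2(TPM + 1), which understates the change of low genes, and by an exact binomial test (two-sided) of rounded expected counts with Benjamini-Hochberg adjustment at 0.05 (scipy 1.17.1, statsmodels 0.14.6). The test was tried on simulated counts that held counting error only, so the trial does not show how it performs on amplified reads. TMM factors came from edgeR 4.0.16 in R 4.3.3. A count of 0 allows up to 3 counts. Reads were amplified and are not independent molecules, so floors and the test cover counting error only. No protein table was used, so the planned comparison of proteins was replaced by coding sequence. Part of the other pathway lists is not reported here.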

Additional observations from a re-analysis of the deposited data

How the results depend on the processing

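The number of genes detected was 16 at a TPM of at least 5, and lay between 24 and 30 under the other limits, with FPKM, in single libraries or with coding transcripts only. The number over 1.5-fold apart was 11 with a pseudocount of 0.1 (background 26.7%), 0 with a pseudocount of 5 (background 1.79%) and 10 with counts scaled by TMM (background 16.8%), so it depends on how low levels are treated. The number beyond counting error was 1 with counts divided by 10, 23 with TMM totals and 24 with no filter. Expected counts scaled to the library total as TPM is, but not divided by length, gave sums of 1124 for cyclases, 661 for phosphodiesterases, 292 for catalytic and 584 for regulatory subunits, and a regulatory to catalytic ratio of 2.03. By those counts the cyclase shares were 96.3% calcium-stimulated, 1.47% calcium-inhibited, 1.59% Adcy9 and 0.118% soluble, and the phosphodiesterase shares 28.4% cAMP-specific, 3.91% cGMP-specific, 27.7% calmodulin-activated and 40.0% other dual. Coding transcripts only, a setting chosen after seeing the data, gave a phosphodiesterase sum of 142 TPM, shares of 33.4%, 11.1%, 24.5% and 31.0% in the same order, 91.8% for calcium-stimulated and 0.0375% for soluble cyclase. The number of genes with a leading transcript that is not protein-coding was 1 by counts against 3 by TPM, because counts are not divided by length. With coding transcripts only, the level of 13 genes moved by more than their SD, and with the deposited posterior mean TPM that of 9 did. With 2 areas a single area always lies within 1 SD of the mean, so leaving out an area shows nothing of stability. No paired analysis was possible because there is 1 group. Genes with few reads, such as the cGMP-dependent kinases, Adcy4 and Pde11a, could not be ordered at this depth.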
